A study of Drosophila melanogaster with 12 samples.

Results

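The genes described here encode proteins of the light response in the photoreceptors of the fly eye. They were chosen by name: a probe set was taken where its single gene symbol in the platform annotation was 1 of 10 listed genes (ninaE, Rh3, Rh4, Rh6, norpA, trp, inaD, Arr1, Arr2 and Galphaq). This found 7 probe sets of 5 genes, of 11982 genes with such a probe set in all. The genes trp, inaD, Arr1 and Arr2 had 1 probe set each and Galphaq had 3, and every probe set is described on its own. The opsin genes ninaE, Rh3, Rh4 and Rh6 and the phospholipase C gene norpA had 0 probe sets under those symbols and were not analysed here.

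The data are 12 Affymetrix Drosophila genome arrays of Drosophila melanogaster in 4 groups of 3 arrays: adults with a knockdown of selenophosphate synthetase 2 (SPS2), wild-type adults, larvae with the SPS2 knockdown and wild-type larvae. Selenophosphate synthetase 2 is the product of Sps2 and makes the selenium donor for selenocysteine. All animals were raised on cornmeal and yeast food, and RNA was labelled from the 3' end of the transcripts. The labels do not state how the knockdown was made, which line was the wild type, whether whole animals or body parts were used, or their sex and age. The arrays are labelled as biological replicates, but whether they came from separate cultures is not given, so the p-values measure the spread between these arrays.

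In the fly photoreceptor, light activates an opsin, the opsin activates a Gq protein, and the alpha subunit of that protein (Galphaq) switches on phospholipase C. This opens the cation channels TRP (trp) and TRPL (trpl) in the light-sensing membrane, the rhabdomere. INAD (inaD) is a scaffold that holds phospholipase C, protein kinase C and TRP together, and the arrestins Arr1 and Arr2 bind the activated opsin and end the response. The adult compound eye holds most of the photoreceptors of a fly, while a larva sees with a pair of small groups of photoreceptors. Galphaq is also used by receptors outside the eye.

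The targeted gene matched the labels, since Sps2 (log2 signal) lay between 6.82 and 7.11 on the adult knockdown arrays and between 9.78 and 9.84 on the adult wild-type arrays. In larvae it lay between 7.11 and 7.56 with the knockdown and between 9.49 and 9.70 in wild type. Values are MAS5 signals, given as linear signal per array and as log2 signal in tests. Median log2 signals of single arrays were 6.37 to 6.48 in adult knockdown and 6.69 to 6.77 in adult wild type. Those of knockdown larvae were 6.03 to 6.16 and those of wild-type larvae 5.95 to 6.04. Centring every array on its median would thus move each adult change up by 0.28 and each larval change down by 0.09 on the log2 scale. In these bulk samples, fewer cells of a type and less RNA per cell cannot be told apart.

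Of the 7 probe sets, 5 read far higher in adults than in larvae, with wild type and with the knockdown. The arrestin Arr2 was the brightest of them in adults. It read 6457, 6282 and 7276 in adult knockdown and 8388, 8650 and 9240 in adult wild type, against 7.37, 44.2 and 14.01 in knockdown larvae and 35.8, 30.5 and 33.3 in wild-type larvae. Every adult array thus lay far above every larval one. A floor was set at the 40th percentile of each array's probe sets, and the means of Arr2 lay below it in both larval groups, so its difference is a bound: at least 245-fold higher in wild-type adults than in wild-type larvae, and at least 175-fold higher with the knockdown. Arr1 read 3918, 3628 and 4153 in adult knockdown and 5503, 6097 and 6435 in adult wild type. Its larval signals were above the floor on all 6 arrays, at 63.5, 75.8 and 69.3 with the knockdown and 94.7, 66.5 and 119 in wild type. Arr1 was 66.1-fold higher in wild-type adults than in wild-type larvae (log2 change 6.05, SE 0.16, limma adjusted p = 7.02e-12) and 56.2-fold higher between the knockdown groups.

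The channel gene trp read 350.5, 336 and 376.9 in adult knockdown and 593.5, 631.7 and 564.4 in adult wild type. On the larval arrays it read 12.4, 5.42 and 3.88 with the knockdown and 2.61, 22.8 and 1.65 in wild type, which is below the floor on all 6. It was at least 16.7-fold higher in wild-type adults than in wild-type larvae and at least 9.29-fold higher in knockdown adults than in knockdown larvae. The scaffold gene inaD read 198.2, 200 and 206.1 in adult knockdown and 207.3, 198.4 and 277.9 in adult wild type, and no more than 4.66 on any larval array. Its differences were at least 6.31-fold in wild type and at least 5.28-fold with the knockdown. Of the 7 probe sets, 5 were called higher and 1 lower in wild-type adults against wild-type larvae, where 53.3% of all 12827 probe sets tested were called higher and 28.4% lower. The counts were also 5 and 1 with the knockdown, where 50.3% were called higher and 30.9% lower. A call is an adjusted p under 0.05 in the linear model of all 12 arrays (limma). The low-signal filter required a probe set to reach the floor on 3 arrays, and trp and inaD passed it through the adult arrays alone, and Arr2 and 1 Galphaq probe set reached it on 1 larval array each, so those 4 had to differ between the stages and their calls add nothing.

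**Figure D1:**
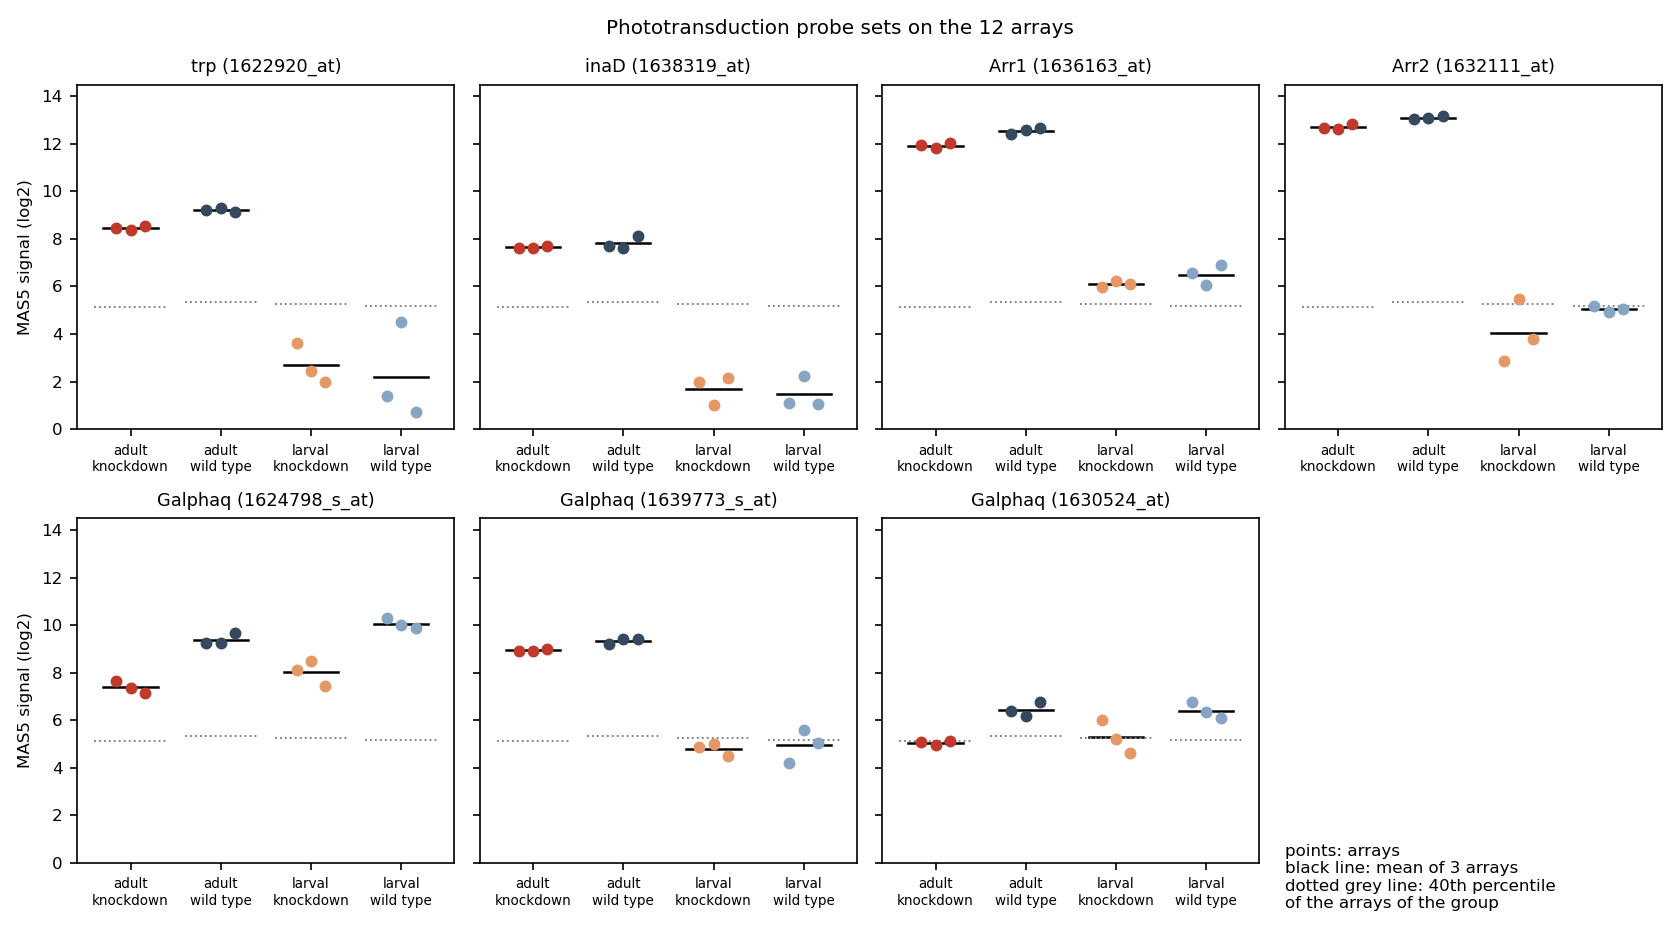
Signal of the 7 phototransduction probe sets on each of the 12 arrays, in adult knockdown, adult wild type, larval knockdown and larval wild type; points are single arrays in log2 signal, black lines are means of 3 arrays and dotted lines the floor. The adult arrays of trp, inaD, Arr1, Arr2 and Galphaq 1639773_s_at lie far above the larval ones, while Galphaq 1624798_s_at and 1630524_at are lower with the knockdown at both stages.

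The 3 probe sets of Galphaq did not all share this pattern. Galphaq has 7 transcripts in RefSeq (Release 6), and which of them each probe set reads was not analysed here. In Affymetrix's naming, an ID that ends in _s_at marks probes that can match several transcripts. Whether such probes also match transcripts of another gene was not analysed here, though the annotation gives each probe set a single symbol. Probe set 1639773_s_at followed the eye genes. It read 483, 480.1 and 517.1 in adult knockdown and 592.4, 681.7 and 681.6 in adult wild type, and its larval means lay below the floor, with a difference of at least 18.2-fold between the wild-type stages. Probe set 1624798_s_at was above the floor on every array of both stages. It was lower in wild-type adults than in wild-type larvae by 1.59-fold (log2 change -0.67, SE 0.23, limma adjusted p = 0.0172). Probe set 1630524_at differed little between the wild-type stages (log2 change 0.05, SE 0.34, adjusted p = 0.905).

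With the knockdown, the largest change of the group was in Galphaq 1624798_s_at, in adults and in larvae. It read 199.5, 163.8 and 139.8 in adult knockdown against 606.4, 613.3 and 814.8 in adult wild type. In larvae it read 278.9, 361.8 and 175.1 with the knockdown against 1242, 1026 and 958.3 in wild type. The groups were well apart at both stages. The signal was 4.05-fold lower in knockdown adults (limma adjusted p = 5.44e-05, with a log2 change of -2.02 and an SE of 0.23 for 3 arrays per group) and 4.10-fold lower in knockdown larvae (log2 change -2.04, SE 0.23, adjusted p = 5.31e-05). Adult minus larval, the effects differed by 0.02 (SE 0.33, adjusted p = 0.974), and 0.39 with median centring (adjusted p = 0.379), and neither difference was called. These calls were kept under every alternative setting run.

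Galphaq 1630524_at, a dim probe set, was also lower. It reached the floor on 3 adult and 3 larval wild-type arrays, but on 0 adult and 2 larval knockdown arrays. It thus passed the low-signal filter only with the wild-type arrays, where it is high, which limits what its calls add. It read 34.0, 30.6 and 35.1 in adult knockdown and 84.2, 71.7 and 107 in adult wild type. The knockdown arrays lay below the floor, so the difference is at least 2.46-fold (log2 change -1.38, SE 0.34, limma adjusted p = 0.00914). In larvae it read 64.1, 37.2 and 24.6 with the knockdown and 108, 80.5 and 67.8 in wild type, without overlap, and was 2.16-fold lower (log2 change -1.11, SE 0.34, adjusted p = 0.0290). The adult call was lost with quantile normalization (adjusted p = 0.0909). The larval call was lost without larval knockdown replicate 2 or 3 (adjusted p = 0.0667 and 0.0980) and without larval wild-type replicate 1 or 2 (0.0983 and 0.0603). It was also lost with array weights (limma adjusted p = 0.0628) and with the larval arrays alone (0.0756), also when quantile normalized (0.0554).

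The bright adult probe set, 1639773_s_at, differed far less. Its 3 adult knockdown arrays lay below all 3 adult wild-type arrays, but the log2 change was -0.40 (SE 0.27, 95% interval -1.0 to 0.20, limma adjusted p = 0.302) and was not called. In larvae its signals were below the floor in both groups and overlapped (adjusted p = 0.743). Within each array, the log2 signal of 1624798_s_at minus that of 1639773_s_at averaged -1.57 ± 0.31 in adult knockdown and 0.05 ± 0.21 in adult wild type (SD, n = 3 each). The 3 adult knockdown arrays lay below the 3 adult wild-type arrays. An exact two-sided permutation test gave p = 0.1, the smallest that 3 against 3 arrays allow, and 0.133 adjusted over 8 such comparisons, so this design could not pass the threshold. A difference within an array does not depend on how the arrays were scaled by a constant. For larvae the same difference is not given, because 1639773_s_at lay below the floor there.

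**Figure D2:**
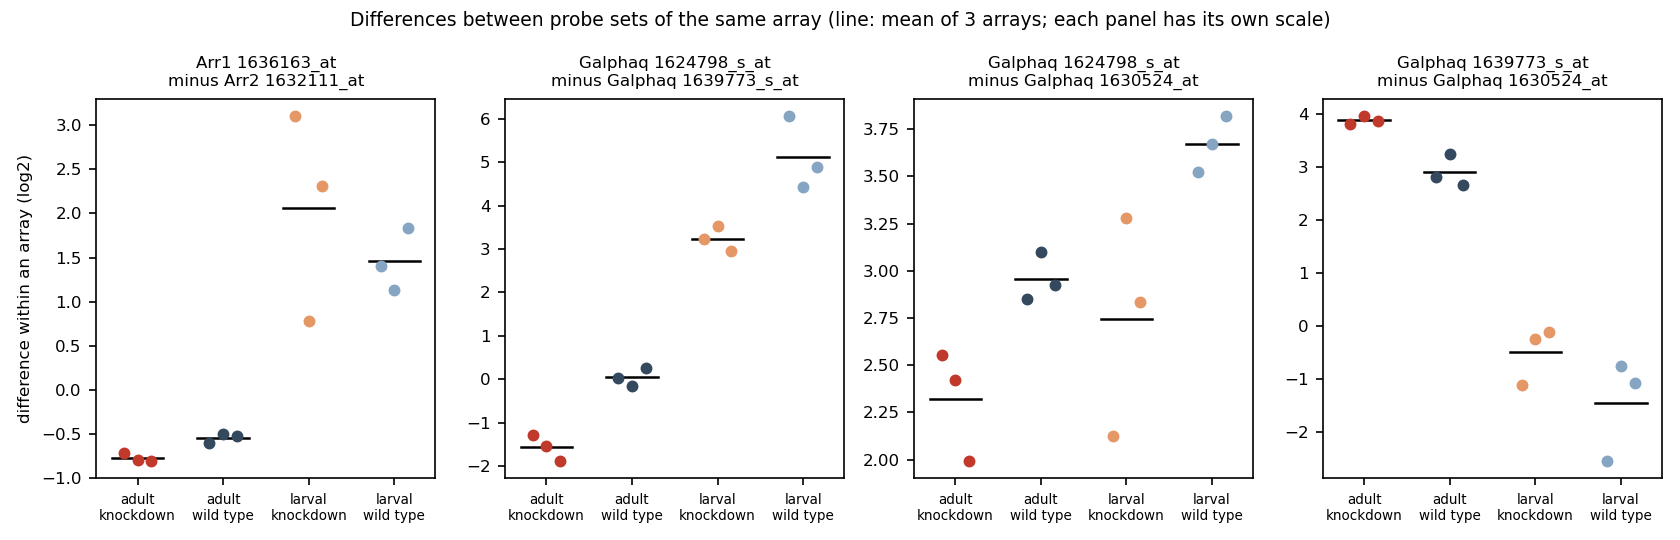
Differences in log2 signal between pairs of probe sets of the same array, for Arr1 minus Arr2 and for the pairs of Galphaq probe sets; points are arrays, lines are means of 3 arrays, and each panel has its own scale. Larval points that involve Arr2 or 1639773_s_at use signals below the floor and have no readable size. Galphaq 1624798_s_at minus 1639773_s_at is -1.57 in adult knockdown and 0.05 in adult wild type, with no overlap.

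Both arrestins and trp had lower adult signals with the knockdown, on every array, but the 12-array model called only Arr1 among them. Arr1 was 1.54-fold lower in adult knockdown (log2 change -0.62, SE 0.16, limma adjusted p = 0.0139). The call was lost with median centring (log2 change -0.34, adjusted p = 0.143) and without adult knockdown replicate 2 or adult wild-type replicate 3 (adjusted p = 0.0581 and 0.0573). Arr2, whose signals are given above, had a log2 change of -0.40 (SE 0.45, 95% interval -1.36 to 0.57, adjusted p = 0.543). The change of trp was -0.75 (SE 0.76, 95% interval -2.41 to 0.91, adjusted p = 0.494). For inaD the adult groups overlapped, with a log2 change of -0.16 (SE 0.44, 95% interval -1.12 to 0.79, adjusted p = 0.812).

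The spread that the 12-array model gave to trp, inaD, Arr2 and Galphaq 1639773_s_at came largely from the larval arrays, where their means lay below the floor. The SD of trp in log2 signal was 0.08 in adult knockdown and 0.08 in adult wild type, against 0.86 in knockdown larvae and 2.02 in wild-type larvae. With the 6 adult arrays fitted alone, the SE of trp was 0.08, and its change was called lower (log2 change -0.75, 95% interval -0.92 to -0.58, limma adjusted p = 7.98e-05). Arr2 was also called lower in that fit (95% interval -0.53 to -0.26, adjusted p = 0.000698), as was Galphaq 1639773_s_at (95% interval -0.57 to -0.23, adjusted p = 0.00234). The interval of inaD narrowed to -0.46 to 0.14 (adjusted p = 0.346) and it was not called. In that fit 6 of the 7 probe sets were called lower, where 25.8% of all probe sets tested were. With both the adult arrays alone and median centring, an alternative chosen after seeing the data, 4 probe sets remained called lower: trp, Arr1, and Galphaq 1624798_s_at and 1630524_at. Of all 12827 probe sets tested, 1450 were called lower and 5610 higher in that setting.

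In the 12-array model, 3 of the 7 probe sets were called lower in adult knockdown and 0 higher, where 15.4% of all probe sets tested were called lower and 13.6% higher. The 3 were Arr1 and 2 probe sets of Galphaq, so they stand for 2 genes, and 1630524_at passed the filter only with its wild-type arrays. The log2 change was negative for 7 of 7, with a median of -0.62 beside -0.04 for all probe sets tested, and the groups did not overlap for 6 of 7, beside 58.2% of all. With each array centred on its median, inaD turned to a log2 change of 0.12, and with quantile normalization to 0.05 (0.045 before rounding). The other 6 stayed negative under both.

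Arr1 and Arr2 could be set against each other within each adult array, since both were bright. The log2 signal of Arr1 minus that of Arr2 averaged -0.77 ± 0.05 in adult knockdown and -0.55 ± 0.06 in adult wild type (SD, n = 3 each). The 3 knockdown arrays lay below the 3 wild-type arrays (difference -0.23, exact two-sided permutation p = 0.1, 0.133 adjusted). Signals of different probe sets have no common scale, so the difference between genotypes is readable and the level of one arrestin against the other is not.

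**Figure D3:**
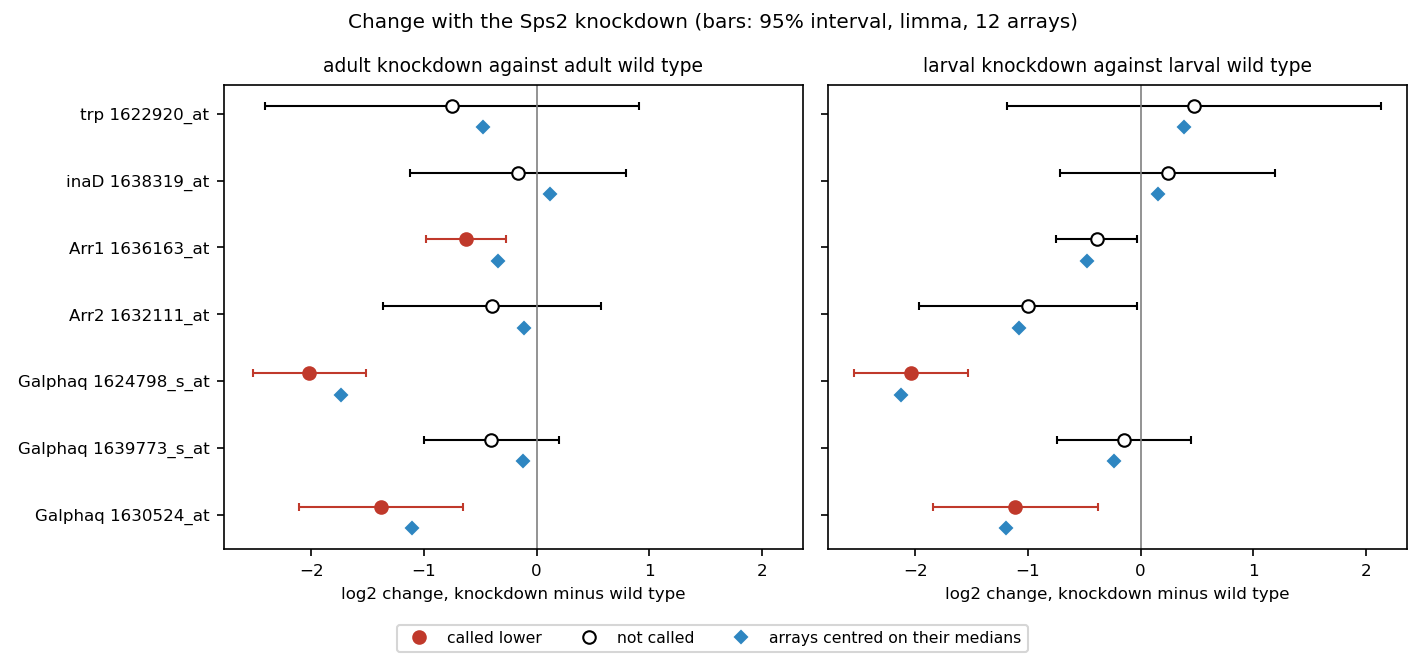
Log2 change of the 7 probe sets, adult knockdown against adult wild type and larval knockdown against larval wild type, with 95% intervals from limma on 12 arrays; diamonds give the change with arrays centred on their medians. The intervals of Galphaq 1624798_s_at, Galphaq 1630524_at and Arr1 lie below 0 in adults, and those of trp, inaD, Arr2 and Galphaq 1639773_s_at include 0.

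In larvae, 2 of the 7 probe sets were called lower with the knockdown, both of Galphaq, and 0 higher, where 10.7% of all probe sets tested were called lower and 15.0% higher. Of these 2, 1630524_at passed the filter only with its wild-type arrays. Arr1, the only other one above the floor in larvae, had a log2 change of -0.39 (SE 0.16, limma adjusted p = 0.107), with overlapping groups. Without larval wild-type replicate 2, its change was -0.61 and called (adjusted p = 0.00328). The remaining 4 were below the floor in both larval groups and the size of their change cannot be read. For 2 of them leaving out a single array gave a call on such signals: Arr2 lower without larval knockdown replicate 2 (adjusted p = 0.000191), and trp higher without larval wild-type replicate 2 (adjusted p = 0.0186). The knockdown effect was not called different between adults and larvae for any of the 7 by limma (the smallest unadjusted p was 0.279, for trp), where 20.8% of all probe sets tested were called. For those above the floor in larvae, the difference of effect, adult minus larval, was 0.02 for Galphaq 1624798_s_at, -0.27 (SE 0.48) for 1630524_at and -0.24 (SE 0.23) for Arr1. Without the same single arrays the difference was called for trp and for Arr2 (adjusted p = 0.0158 and 0.0084), again on larval signals below the floor.

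The channels and the phosphoinositide cycle around these genes gave a mixed picture. The channel trpl, the partner of trp in the rhabdomere, read 533.6, 478.9 and 502.7 in adult knockdown against 331.6, 349.5 and 360.6 in adult wild type. Its adult signal was thus higher on every knockdown array, the opposite of trp. The 12-array model did not call it (log2 change 0.54, SE 0.46, limma adjusted p = 0.412), while the 6 adult arrays alone called it higher (SE 0.07, adjusted p = 0.000425). The within-array difference trp minus trpl was picked after both were seen and is a description: it averaged -0.51 ± 0.10 in adult knockdown and 0.78 ± 0.12 in adult wild type (SD, n = 3 each). Calx, the sodium and calcium exchanger that removes calcium after light, was lower in adult knockdown (log2 change -0.50, SE 0.09, adjusted p = 0.00138), and was not called with median centring (-0.22, adjusted p = 0.119).

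Gbeta76C, the beta subunit of the eye Gq protein, read 989.6, 940.4 and 993.8 in adult knockdown and 982.5, 970.6 and 1025 in adult wild type. Its adult log2 change was -0.03, with a 95% interval of -0.14 to 0.09 in the 6 adult arrays alone (limma adjusted p = 0.702). Of 9 tested genes of the G protein and its effectors, 1 was called lower in adults and 1 in larvae, beside 16.2% and 11.0% of all 10426 named genes. The adult one was rdgC, the phosphatase that resets the opsin (log2 change -0.53, SE 0.19, adjusted p = 0.0482), a call that was lost with median centring and with quantile normalization (adjusted p = 0.306 and 0.327), and without any 1 of several arrays, up to an adjusted p of 0.211 without adult wild-type replicate 3. The larval one was Pis, which makes phosphatidylinositol (log2 change -0.35, adjusted p = 0.000501).

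Among genes that end the response, the members left out, 2 of 5 were lower in adults and 2 of 5 in larvae, beside 16.2% and 11.0% of all named genes. The adult calls were Gprk2 and rdgC, which is in both lists. Gprk2, a kinase of G protein-coupled receptors, read 295, 304.4 and 274.7 in adult knockdown against 416.5, 438.7 and 450.2 in adult wild type, without overlap. Its log2 change was -0.58 in adults (SE 0.11, limma adjusted p = 0.00168) and -0.75 in larvae (adjusted p = 0.000285). Gprk1, the kinase that phosphorylates the main opsin, was lower in larvae (log2 change -0.22, adjusted p = 0.0282), and its log2 change was 0.18 in adults (adjusted p = 0.0584). Its larval call was lost with the larval arrays alone, array weights and quantile normalization (adjusted p = 0.108, 0.0917 and 0.0577), and without larval knockdown replicate 2 or larval wild-type replicate 1 or 3 (0.0965, 0.0594 and 0.0779).

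Of 7 tested genes of opsin maturation and of the chromophore, the vitamin A derivative bound by opsins, 4 were called lower in adults, with a median log2 change of -0.57, and 4 in larvae, with a median of -0.45, beside 16.2% and 11.0% lower of all named genes. None of the 7 was called higher. The gene pinta encodes a retinoid-binding protein needed to make the chromophore. It read 261.3, 281.6 and 246.5 in adult knockdown and 573, 527.3 and 542.2 in adult wild type (log2 change -1.06, SE 0.09), and was also lower in larvae (-0.52, limma adjusted p = 0.00118). The scavenger receptor santa-maria, which takes up carotenoids, was lower in adults (-0.67, adjusted p = 0.00121) and in larvae (-0.45, adjusted p = 0.0138, and 0.0587 with the larval arrays alone). The carotenoid-cleaving enzyme ninaB was lower in adults (-0.67, adjusted p = 0.016), a call lost with median centring (-0.39, adjusted p = 0.12) and quantile normalization (-0.34, adjusted p = 0.238). It was also lost without adult knockdown replicate 1 or adult wild-type replicate 1 or 3 (adjusted p = 0.0575, 0.0671 and 0.053). ninaB lies outside the naming rule and was named after its values were seen.

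The other scavenger receptor, ninaD, which acts in the gut on dietary carotenoids, was lower in larvae. It read 2141, 1528 and 1719 with the knockdown, against 4963, 7868 and 6764 in wild-type larvae (log2 change -1.85, limma adjusted p = 3.3e-05). In adults its log2 change was 0.23 (adjusted p = 0.427), with overlapping groups, and the difference between the stages, adult minus larval, was called (2.08, SE 0.28, adjusted p = 0.000518). The opsin chaperone calnexin, Cnx99A, was lower by a small amount at both stages (log2 change -0.23 in adults and -0.30 in larvae, adjusted p = 0.00167 and 0.000316), and its adult change turned to 0.05 (0.047 before rounding) with median centring.

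Photoreceptors signal with histamine, which glia inactivate by joining it to beta-alanine. Of 5 tested genes of this synapse, 3 were lower in adults and 1 in larvae, beside 16.2% and 11.0% of all named genes. The gene e (ebony), whose product joins histamine to beta-alanine, had a log2 change of -0.93 in adults (limma adjusted p = 0.0186). The gene t (tan), whose product splits it again, read 835.8, 750.9 and 765.5 in adult knockdown and 1165, 1034 and 1284 in adult wild type (log2 change -0.56, adjusted p = 0.0187), and was also lower in larvae (-0.83, adjusted p = 0.00216). Balat, a beta-alanine transporter, had a log2 change of -0.91 in adults (adjusted p = 0.0215). With median centring none of these 3 adult calls remained (adjusted p = 0.0592 for e, 0.167 for t and 0.0899 for Balat). Leaving out single adult arrays also ended each of them, with adjusted p up to 0.0838 for e (without knockdown replicate 2), 0.0793 for t (without wild-type replicate 3) and 0.0973 for Balat (without wild-type replicate 2). Both e and t also act in cuticle pigmentation. The other genes of the 5, Hdc and CarT, were not called in adults (log2 change -0.80 and -0.07, limma adjusted p = 0.501 and 0.891). With the 6 adult arrays alone, Hdc was called lower (limma adjusted p = 0.00247) and CarT was not called (0.82). Both were named after their values were seen. The 5 tested rhabdomere and lens genes had 0 calls at either stage. The smallest p-values by limma were those of Actbeta in adults (log2 change 0.63, unadjusted p = 0.0445, adjusted p = 0.114) and chp, which encodes the photoreceptor surface protein chaoptin, in larvae (unadjusted p = 0.072). In adults chp differed by -0.11.

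**Figure D4:**
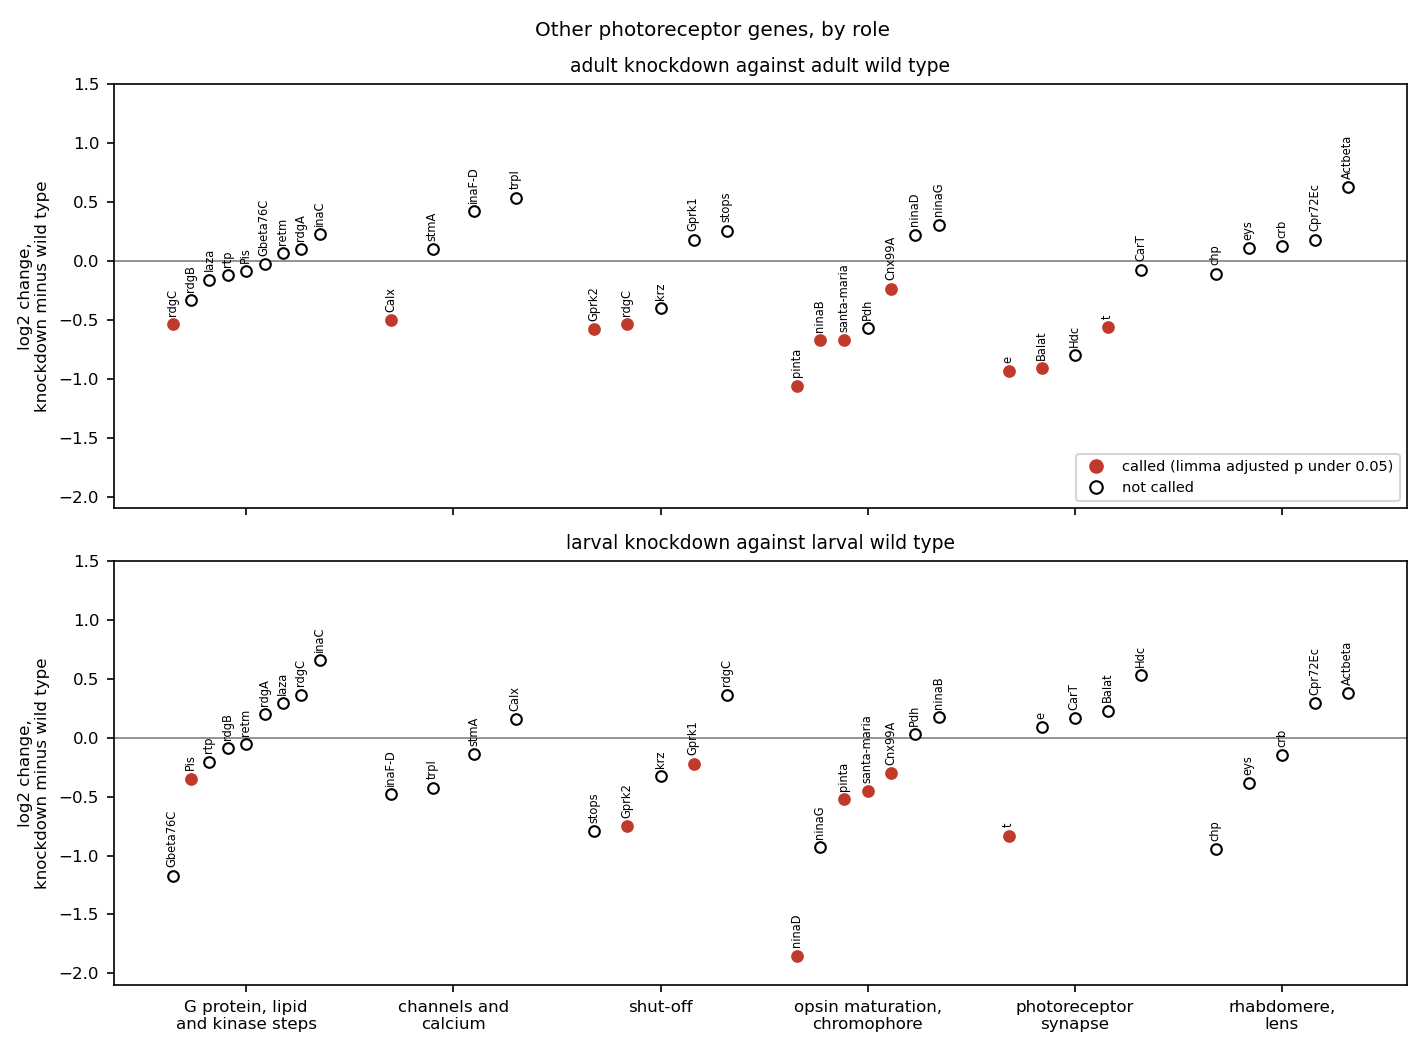
Log2 change with the knockdown of the other genes listed for a role in vision, in columns by role, for adults and for larvae. Each point is 1 gene, and rdgC stands in 2 columns because it is in 2 lists. In adults 4 of 7 genes of opsin maturation and the chromophore and 3 of 5 synapse genes were called lower, and 0 genes were called higher at either stage.

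Over all roles, 34 of 40 further genes on the arrays, listed for a role in vision, were tested, with the members left out. They are called photoreceptor genes for short, but several also act elsewhere, as said above of ninaD, e and t. Their counts are thus not counts of genes particular to photoreceptors. In adults 10 were called lower and 0 higher, beside 16.2% lower and 14.2% higher of 10426 named genes, and the median log2 change was -0.10 beside -0.05 for all. In larvae 8 were called lower and 0 higher, beside 11.0% lower and 15.8% higher, and the medians were -0.18 and 0.05. Of the 34 genes, 9 lay below the floor in both larval groups, and the genes called in larvae were not among these. Median centring changed the adult split to 3 lower and 5 higher. The 6 adult arrays alone gave 14 lower and 3 higher (inaC, trpl and Gprk1), beside 25.8% lower and 22.4% higher of all probe sets. The adult arrays alone with median centring gave 9 lower and 14 higher, beside 1450 lower and 5610 higher of all 12827 probe sets tested. The direction of the adult split thus depends on the scaling, as does that of all probe sets. In larvae median centring left 8 lower and 0 higher. The opsin Rh7 had 2 probe sets, which did not pass the filter, with medians of 3.58 and 4.35 in log2 signal over the 12 arrays.

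Genes of other tissues were counted beside these, in and outside the head, against 16.2% lower and 14.2% higher of all named genes in adults and 11.0% and 15.8% in larvae. Of 5 glial genes tested, 4 were lower in adults (2 with median centring), with summed linear signals of 3696 to 4076 in adult knockdown and 5198 to 5461 in adult wild type, and 1 was lower in larvae. Of 16 neuronal genes, 2 were lower and 0 higher in adults, a share no higher than that of all genes. The adult arrays alone gave 9 lower, beside 25.8% of all probe sets tested in that fit, and median centring gave 1. Sums of the neuronal genes were 7017 to 7311 in adult knockdown and 8391 to 9089 in adult wild type. In larvae 3 neuronal genes were higher and 1 lower, with sums of 7562 to 8118 in knockdown larvae and 6671 to 7551 in wild-type larvae. Of 14 eye pigment genes, 3 were lower and 1 higher in adults (2 lower and 5 higher with median centring), and 4 were lower and 1 higher in larvae. Of 13 eye determination genes, 0 were lower and 1 higher in adults. Of 4 genes of the antenna and olfaction, 1 was lower and 0 higher at each stage. Outside the head, 8 of 9 testis genes were lower in adults (3 with median centring), with a median log2 change of -0.55, and 6 were higher in larvae. Of 10 muscle genes, 6 were lower and 0 higher in adults (0 lower and 1 higher with median centring), and 3 were lower and 1 higher in larvae. Of 5 fat body genes, 0 were lower and 1 higher in adults, and 3 were lower and 1 higher in larvae. Their summed signals were 356.3 to 483.4 in knockdown larvae and 1523 to 27670 in wild-type larvae. Lsp2 read 225, 127.2 and 77.63 in knockdown larvae and 881.4, 17320 and 16600 in wild-type larvae. The wild-type larval arrays thus differed widely among themselves in this gene. The part of these tissues in the changes of the phototransduction and other photoreceptor genes was not tested.

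Arr1 had the highest mean log2 signal of the 7 over the 12 arrays. By its pattern over the arrays, each gene centred on its own mean, Arr1 was closest to Act79B, an actin of adult muscle, with a root mean square difference of 0.28 on the log2 scale. The next were CG18404 (0.36), Boot (0.37), Obp19d (0.38) and CG4009 (0.39). Among the phototransduction probe sets the closest to Arr1 was inaD (0.61), followed by Galphaq 1639773_s_at (0.93), trp (1.14) and Arr2 (1.33). The other Galphaq probe sets were far from it, at 3.06 for 1630524_at and 3.40 for 1624798_s_at. The larval means of inaD, Galphaq 1639773_s_at, trp, Arr2, Act79B, Boot and CG4009 lay below the floor. Their distances include such signals, so their order is only a description.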

How the data were processed

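Per the submitters' processing notes the authors made the values with MAS5, whose version the sources do not state. The deposited log2 values had been scaled to a trimmed mean of 500.01 or 500.02 in linear form on every array. The 183 control probe sets were left out, and 12827 of the other 18769 were tested, those at or above the 40th percentile of their own array on at least 3 of 12 arrays. All arrays entered 1 limma 3.58.1 model (R 4.3.3) with 4 group means, 8 residual degrees of freedom, a variance trend and Benjamini-Hochberg adjustment over all tested probe sets. The fit was tested on simulated arrays. The number of arrays limits the precision. Of the 18769 probe sets, 13647 had 1 symbol, 402 several and 4720 none, and 13544 matched the RefSeq gene table (Release 6), which changed 0 symbols. Where a gene that is no member had several probe sets, the one brightest on average stood for it.

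The members, gene lists and tests were chosen with earlier results of these data known. Every member was named, and from each role list at most 4 called genes, by smallest adjusted p, or 2 by smallest p where none was called. Likeness was set to be measured against ninaE; Arr1, the member brightest on average over the 12 arrays, took its place after the files were seen. Replicate numbers did not pair arrays (correlation of residuals -0.089 to 0.024). Alternatives changed the normalization, filter, arrays fitted, weights and trend. No coordinates or sequences are given.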

Additional observations from a re-analysis of the deposited data

Results flagged for a closer look

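None of the 7 phototransduction probe sets had a knockdown effect that was called different between adults and larvae, but 8 other photoreceptor genes of the 34 tested did, where 20.8% of all probe sets tested were called. Each is given as the adult minus the larval log2 change in the 12-array limma model. The difference was 2.08 for ninaD (SE 0.28, limma adjusted p = 0.000518) and 0.40 for Gprk1 (SE 0.09, adjusted p = 0.011), and these were called under every alternative run. It was -0.66 for Calx (SE 0.13, adjusted p = 0.00407) and -0.53 for pinta (SE 0.13, adjusted p = 0.0125), and both were called except with median centring (-0.29 and -0.17, adjusted p = 0.149 and 0.447). It was 0.26 for Pis, -0.90 for rdgC, -0.85 for ninaB and -1.14 for Balat (adjusted p = 0.0274, 0.0304, 0.0358 and 0.0475). Each of these calls was lost with quantile normalization and without single arrays, and those of rdgC, ninaB and Balat also with median centring. The result stayed the same in 11 of 19 alternatives for Pis and 9 of 18 for rdgC. For ninaB it did so in 6 of 18, and for Balat in 2 of 18.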

How the results depend on the processing

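The calls of Galphaq 1624798_s_at were kept at both stages under all alternatives, with log2 changes of -2.15 to -1.88 in adults and -2.27 to -1.75 in larvae when single arrays were left out. The lower calls among the 7 probe sets numbered 3 in adults, 2 with median centring, 2 with quantile normalization and 2 to 3 without single arrays. With the adult arrays alone they numbered 6, also when quantile normalized, and 4 when centred on their medians. In larvae they numbered 2, and 1 with the stricter filter, with array weights and with the larval arrays alone, also when quantile normalized, and 1 to 3 without single arrays. The difference between stages had 0 calls and 0 to 1 without single arrays. Changes that turned sign were those of inaD in adults (0.045 with quantile normalization and 0.119 with median centring, in 12 arrays or 6), Cnx99A in adults (0.047 with median centring, likewise), trp in larvae (-0.007 without larval knockdown replicate 1, -0.271 when wild-type replicate 3 was left out, and -0.271 to 1.623 over single arrays) and Galphaq 1639773_s_at in larvae (-0.508 to 0.176 over single arrays, 0.176 without larval wild-type replicate 2). Of these only Cnx99A was called before, and the cause was not tested. The differences between stages of members, 0 of them called, turned sign for Arr1 (0.131 with median centring), for Galphaq 1624798_s_at (-0.012 with array weights, -0.073 with quantile normalization and -0.267 to 0.256 without single arrays, beside 0.386 with median centring), for 1630524_at (0.096 with median centring, 0.551 with quantile normalization, -0.601 to 0.091 without single arrays) and for 1639773_s_at (0.113 with median centring, -0.576 to 0.109 without single arrays). The 10 other photoreceptor genes called lower in adults became 3 with median centring (5 higher), 9 with the adult arrays alone and median centring (14 higher), 6 with the stricter filter, which tests fewer genes, and 6 to 10 without single arrays. Of all probe sets, 3717 were called in adults, 5778 with array weights, 6190 with the adult arrays alone, 7060 with these centred on their medians (5610 higher and 1450 lower), and 2484 to 3964 without single arrays. In larvae 3287 were called, 2064 with the larval arrays alone centred on their medians (791 higher and 1273 lower), and 2855 to 3189 without single arrays. With the replicate number as a block, which paired no arrays, the probe sets called were 3 in adults, 2 in larvae and 0 for the difference. Signals below the floor, as of trp, inaD and Arr2 in larvae, limit what could be measured there.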
